A study of Homo sapiens and Mus musculus with 20 samples.

Results

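In SW480 cells, the 500 largest clusters of distal ATAC-seq peaks were followed from untreated cells into cells treated with sodium propionate (NaPr) or sodium butyrate (NaBu). SW480 is an established human colorectal adenocarcinoma line, and ATAC-seq marks open chromatin by the insertions of the Tn5 transposase. The clusters were selected on the peak lists of the 6 untreated libraries. Peak intervals of these libraries were merged wherever they overlapped by 1 bp, which gave 205262 regions, and 56072 of them had a peak in all 6. Of the shared regions, 34159 lay over 3 kb from every transcript start of a protein-coding gene and are called distal here. Distal regions at most 12.5 kb apart were joined into 22037 clusters, and the 500 with the most bases under peaks were kept, with 3307 regions. The comparison comprised 3 libraries of cells given 10 mM NaPr and 3 untreated libraries of the same experiment, and 3 libraries of cells given 1 mM NaBu with 3 untreated libraries of their own. Treatment lasted 12 to 16 h and 50000 viable cells entered each reaction. All libraries came from the SW480 line alone, and nothing in the labels says whether replicates were separate cultures, so p-values measure the spread between these libraries, which may be technical. Doses differed between the compounds and the experiments carry different dates, so the compounds are given side by side and dose, date and compound cannot be told apart.

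Enhancers are distal stretches of open chromatin that bind transcription factors and act on promoters at a distance. Dense groups of them, often called super-enhancers when ranked by acetylated histones or cofactors, lie near genes that set a cell's identity and near oncogenes, among them MYC in colorectal cancer. Butyrate, and more weakly propionate, inhibits histone deacetylases, and the study compared open chromatin before and after giving these fatty acids, which gut bacteria make from fibre, to the cells. The clusters here were ranked by open bases, with no histone mark, so the name super-enhancer is not used for them.

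Short stretches from the clusters are printed on the plus strand of GRCh38, as examples of the AP-1 letters in large clusters and of regions that came or went. The first 3 are from the region with the highest summit in a large cluster, were picked because that region holds the AP-1 letters, which most cluster regions do not, and are centred on the match to the AP-1 letters TGACTCA, or its reverse complement, nearest to that summit. Capitals mark this match, which lay 56, 51 and 411 bp from the summit.
WNT7B cluster, chr22:46013622-46013650: gagtcagggccTGAGTCAgcgccctccgc
FGF3 cluster, chr11:69840784-69840812: ccactgaaagcTGAGTCAcccaggttttg
EGFL7 cluster, chr9:136645005-136645033: tcccagggctcTGAGTCAgccttggagag
Single regions follow. The first had no peak in any untreated library of the NaBu experiment and a peak in all NaBu-treated ones, again with the AP-1 letters in capitals. Its label refers to the libraries of that experiment alone, since cluster regions were formed on the untreated libraries of both experiments. Next come one higher with NaBu and 3 that had no peak in any treated library of their experiment.
EEIG1 cluster, peak with NaBu only, chr9:127968852-127968880: gtgtgaggcccTGACTCActggtctccac
AP2S1 cluster, higher with NaBu, chr19:46806729-46806757: cagtggggaacatcaaagggtctaagcag
PLEKHG6 cluster, no peak with NaBu, chr12:6274487-6274515: acagcataccaaactctgtcctgcccctg
PTMA cluster, no peak with NaBu, chr2:231671822-231671850: agccggctgagctgagtgggcaggaccag
NUAK2 cluster, no peak with NaPr, chr1:205317691-205317719: cctccctgccgcttagcaggcaggtgcag
The last 4 hold no AP-1 match within their region and are centred on the summit.

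The libraries held 108442 to 144398 peak intervals each. Background pileup, the mean number of tags over a genome position as recovered from the lists, was 0.936 to 2.36 in the NaPr experiment and 2.11 to 3.03 in the NaBu experiment, ranges that overlap. Read totals are not in the lists, so depth was read from this pileup alone. All 9 of 9 colorectal epithelial genes (EPCAM, CDH1, CDX2 and VIL1 among them) had a peak within 1 kb of a start in all 12 libraries. Among genes of other cells, PTPRC, CD3E and ALB had none, MYOD1 had a peak in 2 libraries, and PECAM1 and COL1A2 had a peak in all 12.

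A cluster is called here by the protein-coding gene whose transcript start was nearest to one of its regions, and by its place in the order of size. Nearest is a position, and no link between a cluster and the gene was measured. Members covered 4579 to 23473 bp, with a median of 5825 bp, over spans of 10188 to 120653 bp. They held 2 to 26 regions, with a median of 6, whereas 15346 of all clusters (69.6%) were a lone region. Although 2.27% of the clusters, they held 9.68% of the distal regions and 10.9% of their bases. There was no gap in size at the limit, where the last clusters inside it covered 4582 and 4579 bp and the first ones outside it 4578 and 4571 bp.

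**Figure D1:**
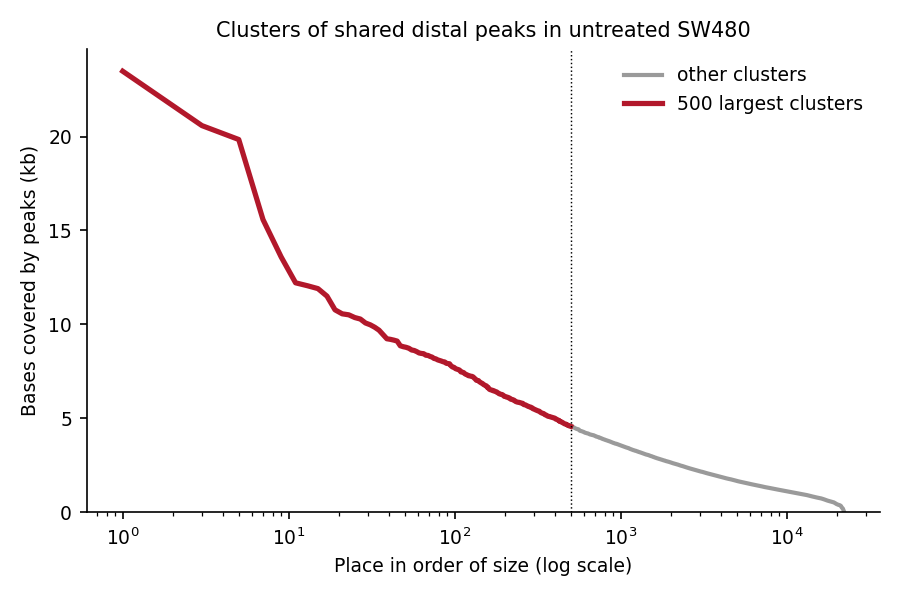
Bases under peaks per cluster (kb, linear axis from 0) against place in order of size (log axis) for the 22037 clusters of untreated SW480 cells, the 500 largest in red. The curve is steep over the first 100 places (from 23473 to 7665 bp) and passes the limit of 500, marked by the dotted line, without a step.

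Among the 10 largest clusters, the one of 17 regions at chr22:45994555-46088361, over the host gene of the let-7b microRNA (MIRLET7BHG), had WNT7B, a WNT ligand, as its nearest gene. Others of the 10 were nearest to ASB13, SHB (a signalling adaptor), SLC39A11 (a zinc transporter, with LINC00511 inside the span), FGF3 (a growth factor), EGFL7, MYC, ZFP36L2 (an RNA-binding protein that speeds mRNA decay) and AXIN2 (a feedback inhibitor of WNT signalling). The 500 clusters had 438 different nearest genes. BCOR, an X-linked corepressor, was nearest to 5 clusters, and MYC, PDGFA, TPTE, TRIB1 and VAPA to 4 each. A start of a protein-coding gene lay inside the span of 42 clusters and a lncRNA start inside that of 114. In 208 clusters a region lay within 10 kb of the nearest start, and in 119 the nearest start was over 50 kb away.

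Regions of the clusters were slightly wider than other distal regions (median 926 against 829 bp) and farther from a start (median 32802 against 22841.5 bp). Of the cluster regions, 49.0% were intergenic and 27.5% lay in an intron of a protein-coding gene, against 41.9% and 38.3% of the others. A lncRNA start lay within 1 kb of 8.13% of cluster regions and of 6.17% of the others. The 200 bp around the highest summit had a median GC content of 56.5% in the clusters and 52% elsewhere. Letters of AP-1 (TGACTCA), which binds FOS and JUN proteins, were found on either strand in 20.0% of cluster regions and 19.7% of the others, so the clusters differed little from other distal regions there. The CTCF motif, of the insulator protein, were found in 6.53% against 12.5%, and those of the KLF family (CCACACCC or CCACGCCC) in 8.77% against 5.88%. The rule used distance from starts and width but no sequence, and no test was run on these shares.

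For the comparison with treatment, peaks of the 6 libraries of an experiment were merged anew, and each region with a peak in at least 2 libraries was given its percentile rank within each library by its highest −log10 p, from 0 for no peak to 100 for the strongest. A cluster's value is the mean rank of its regions, and a change is a difference of mean ranks in percentile points, not a fold. Regions and clusters are called where the adjusted p of limma was below 0.05 over all those tested. The untreated libraries that chose the clusters are also the untreated side of both comparisons, so counts over the 500 describe the clusters and are no evidence of a direction. These are bulk libraries, so a lower value in all cells and the loss of a peak in some of them cannot be told apart.

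With NaPr, 62 of the 500 clusters fell and 8 rose, or 12.4% and 1.60%, where 6.27% of all 22037 clusters fell and 7.79% rose. The median change was −3.78 points in the 500 and 0.02 points in all clusters. Of the 6191 other clusters of 2 or more regions, 6.57% fell and 4.36% rose, with a median of −1.11 points. Single regions of the 500 clusters fell in 388 of 3571 cases (10.9%) and rose in 195 (5.46%), against 3.90% and 4.45% of all 129351 regions tested. Of shared regions within 3 kb of a start, 9.12% fell and 2.44% rose, and of other shared distal regions 4.77% fell and 6.38% rose. Median untreated ranks were 76.1 in cluster regions, 71.1 in other shared distal regions and 46.7 in all regions tested. For whole clusters they were 73.5 in the 500 and 71.0 in other clusters of 2 or more regions. The part of the untreated rank in these counts was not tested. Of these 3571 regions, 3421 had a peak in all 3 untreated libraries of the experiment and 30 in none, because a shared region can split when other libraries are merged. The counts of risers and fallers depended on scaling. Fits on recovered tags kept only regions with a peak in all 6 libraries. With recovered tags scaled by the background, 15 of the clusters rose and none fell (3% and 0%, against 16.3% and 0.721% of all clusters), with a median log2 change of 0.13 in the 500 and 0.31 in all clusters. With tags scaled by the median 28 rose and 96 fell (5.6% and 19.2%, against 14.03% and 10.8% of all). Ranking by fold enrichment left 6 lower and none higher, and the 1.2% that fell were then below the 1.69% of all clusters. Without untreated replicate 1, 2 or 3 the fallers among the 500 numbered 19, 10 and 14 (3.8%, 2% and 2.8%). Of all clusters, 2.38%, 1.54% and 1.53% fell in these fits. Without treated replicate 1, 2 or 3 the fallers among the 500 numbered 42, 38 and 40 (8.4%, 7.6% and 8%). Here 4.82%, 4.62% and 5.61% of all clusters fell. No single region was called once any 1 treated library was left out. Of the 18 NaPr calls of clusters named below, 1 was kept in all 6 fits that left out a library, against 25 of 30 with NaBu.

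With NaBu, 161 of the 500 clusters fell (32.2%) and 34 rose (6.80%), where 15.7% of all clusters fell and 26.6% rose. The median change was −3.35 points in the 500 and 1.5 in all clusters. Of the 6191 other clusters of 2 or more regions, 17.1% fell and 19.8% rose, with a median of 0.31 points. Of 3436 single regions of the 500 clusters, 934 fell (27.2%) and 585 rose (17.0%), against 17.3% and 19.6% of all 127305. Median untreated ranks were 72.9 in cluster regions and 49.0 in all regions tested. Of shared regions within 3 kb of a start, 26.9% fell and 10.6% rose, and of other shared distal regions 14.7% fell and 23.3% rose. The number of clusters that rose was 2 when peaks were ranked by fold enrichment, 89 with tags scaled by the background and 96 with tags scaled by the median, and the number that fell was 117, 181 and 174. Of all clusters, 10.2%, 35.6% and 37.3% rose and 13.7%, 17.8% and 16.9% fell in these fits. Without untreated replicate 2 the risers among the 500 numbered 18 (3.6%, against 22.1% of all clusters). Without treated replicate 1, 2 or 3 they numbered 22, 19 and 19 (4.4%, 3.8% and 3.8%). Of all clusters, 23.4%, 21.0% and 21.2% rose in these last 3 fits.

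**Figure D2:**
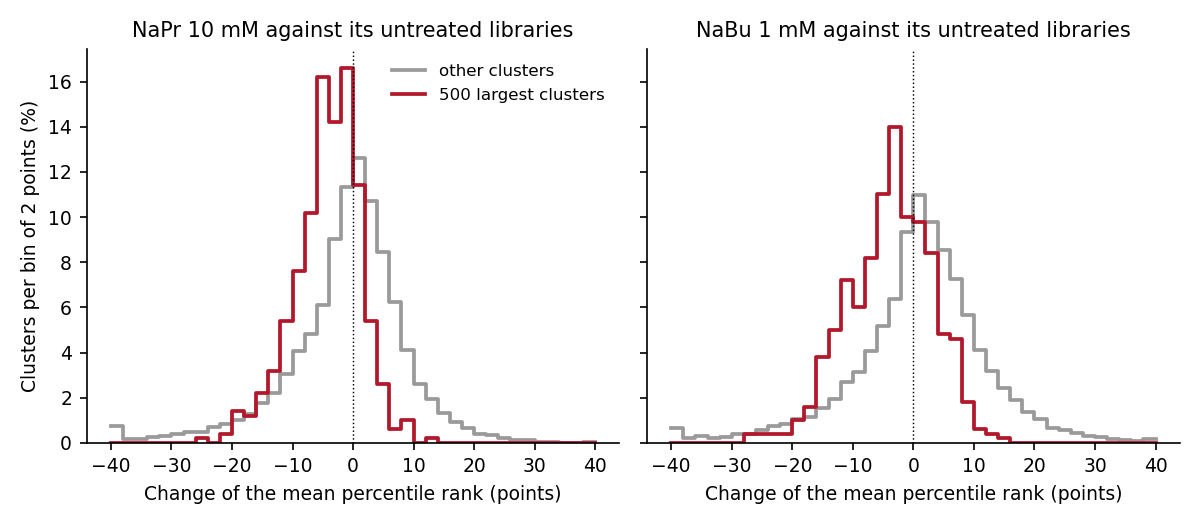
Share of clusters (%) per bin of 2 points by the change of mean percentile rank with NaPr (left) or NaBu (right) against the 3 untreated libraries of the same experiment, with values beyond 40 points put in the end bins. The curve of the 500 largest clusters (red) sits left of that of the other 21537 (grey), with medians of −3.78 against 0.12 points for NaPr and −3.35 against 1.63 points for NaBu.

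To separate selection from comparison, the rule was also applied to the 3 untreated libraries of the NaBu experiment alone and the clusters so chosen were compared in the NaPr libraries, and the reverse. Clusters chosen this way had no library in common with the comparison. In the NaPr comparison, 24 of 498 such clusters fell (4.82%) and 5 rose (1.00%), where 3.33% of all 25291 clusters of that rule fell and 5.69% rose. The median change was −2.67 points, and 1.04 points in all. In the NaBu comparison, 75 of 500 fell (15%) and 52 rose (10.4%), where 10.9% of all 24717 fell and 28.4% rose, with medians of −1.49 and 3.29 points. In both comparisons the share of rising clusters was below and that of falling clusters above the background. The margin for the falling ones was smaller than in the 500 chosen on all 6 libraries, and no test was run on these shares. This background includes lone regions, and other clusters of 2 or more regions were not set apart under that rule. In the main fit their medians, −1.11 points with NaPr and 0.31 with NaBu, were also below those of all clusters, 0.02 and 1.5.

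Within the 500, the first 100 by size had a median change of −4.28 points with NaPr and the last 100 of −3.08 points. With NaBu the medians of successive groups of 100 were −4.65, −3.73, −2.54, −2.25 and −2.36 points. No test was run on this order. Many clusters held regions called in both directions with NaBu, and fewer with NaPr. With NaBu, 253 clusters held at least 1 region that rose and 1 that fell, 148 held only falling and 75 only rising calls, and 24 had no region called. Of the 161 clusters that fell, 68 held a rising region, and in 71 at least 50% of the regions tested fell. With NaPr, 66 clusters held calls of both directions, 189 only falling, 77 only rising and 168 none. The clusters held a median of 6 regions, and 27.2% of cluster regions fell and 17.0% rose with NaBu, against 10.9% and 5.46% with NaPr. These mixtures were not counted in other clusters, so they are not given as a trait of the 500.

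The compounds were compared with separate untreated libraries. Calls were lower with both in 40 clusters, higher with both in 3, opposite in 2 and absent in 280. The 40 were 64.5% of the clusters that fell with NaPr and 24.8% of those that fell with NaBu, and over all 22037 clusters the shares were 55.8% and 22.3%. Across the 500 clusters the changes had a Pearson r of 0.56 and a Spearman rho of 0.55, and across all clusters 0.52 and 0.51. These are descriptions, since clusters share libraries and the 500 were chosen on both sets of untreated libraries.

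**Figure D3:**
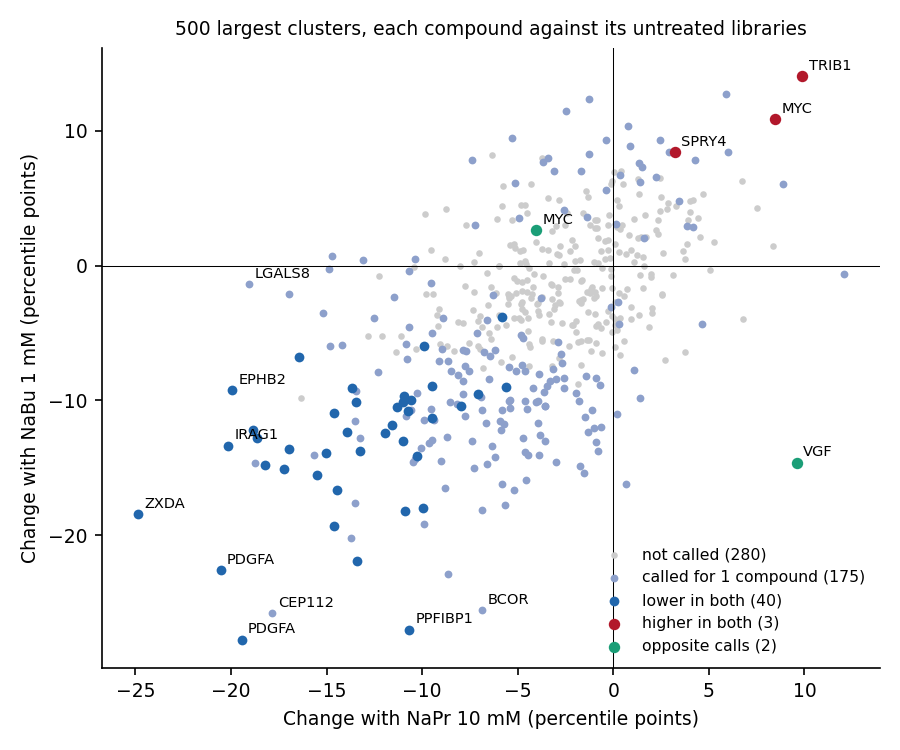
Change of mean percentile rank (points) of each of the 500 clusters with 10 mM NaPr (horizontal) and 1 mM NaBu (vertical), each against its own 3 untreated libraries, coloured by limma calls. The 40 clusters lower in both (blue) fill the lower left, with the clusters of PDGFA and ZXDA far out, and the 3 higher in both (red) are those of TRIB1, MYC and SPRY4.

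Calls of the clusters named here depended on the ranking. With peaks ranked by fold enrichment all 18 of the named NaPr calls and 15 of the 30 NaBu calls were lost, the latter those of WNT7B, ASB13, SLC39A11, FGF3, TRIB1, SPRY4, POU5F1B, PREX1, ZXDA, IRAG1, ACTN4, KRT80 and the 3 MYC clusters called. With lists limited to the top 50000 intervals 11 NaPr and 10 NaBu calls were lost, and with tags scaled by the background 15 and 4. In clusters formed on the other experiment, whatever their size, 7 of the 18 NaPr and 23 of the 30 NaBu calls were also made. The libraries compared were those of the main fit. Of these calls, ATXN7L1, ZXDA and VGF with NaPr lay outside the largest clusters chosen there. With NaBu so did AP2S1, HES1, CEP112, ZXDA, VGF, EPHB2 and TGFA. The NaBu calls of MYC at places 8, 88 and 198 shared 1 value there (8.52 points), so they are not separate repeats. The 7 NaBu calls lost there were WNT7B, FGF3, EGFL7, PREX1, ACTN4, KRT80 and SMAD7.

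Among the 10 largest clusters, 6 were called with NaBu and 3 with NaPr. At the WNT7B cluster the mean ranks were 65.6, 62.1 and 62.4 in untreated and 48.3, 50.8 and 52.8 in NaBu-treated libraries. All treated values lay below the untreated ones, and the cluster fell by 12.7 points (SE 3.24, limma adjusted p = 0.0105), with 10 of its 20 regions called lower and none higher. In the cluster of the other rule at WNT7B the NaBu change was −4.54 points (limma adjusted p = 0.324). With NaPr it stood at 69.9, 70.0 and 70.6 against 61.9, 59.5 and 63.0, with no overlap either, but the change of −8.67 points (SE 3.18) did not pass the test (limma adjusted p = 0.0930).

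The cluster over LINC00511 nearest to SLC39A11 (chr17:72557005-72641289) was at 81.7, 80.8 and 78.3 without and 67.2, 71.3 and 69.3 with NaPr. With NaBu the values went from 71.9, 70.0 and 71.0 to 56.8, 57.4 and 59.6. The groups did not overlap in either experiment, and the cluster fell by 10.99 points with NaPr (SE 2.36, limma adjusted p = 0.0175) and fell by 13.04 points with NaBu (SE 2.63, adjusted p = 0.00334). The call with NaPr was lost without untreated replicate 1 or 2. ASB13 and FGF3 clusters also fell with both compounds, with changes of −7.96 and −11.3 points with NaPr and −10.4 and −10.5 points with NaBu, although each NaPr call was kept in 1 of the 6 fits that left out a library. The EGFL7 cluster fell by 11.7 points with NaBu. In clusters of the other rule the NaBu changes at FGF3 and EGFL7 were −4.67 and −7.94 points (limma adjusted p = 0.217 and 0.0546). Clusters near SHB, ZFP36L2 and AXIN2 (place 10) passed neither test, with changes of −11.4, −1.68 and −2.84 points with NaPr and −6.41, −2.77 and −2.73 points with NaBu.

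The MYC cluster at chr8:127851159-127919919, inside the lncRNA gene PVT1 and 112086 bp from the start of MYC, was the only one of the 10 largest that rose. Its ranks were 71.6, 70.0 and 72.1 in untreated and 77.4, 79.0 and 77.2 in NaBu-treated libraries. Every treated value was above every untreated one, a rise of 6.62 points (SE 1.91, limma adjusted p = 0.0189) that was not called without treated replicate 2. By fold enrichment it was 0.476 points (adjusted p = 0.893), and with a peak in at least 1 library 4 points (adjusted p = 0.0673). With NaPr the values of 83.7, 87.4 and 85.5 and of 86.1, 88.0 and 89.2 overlapped, with a change of 2.22 points (SE 1.42, adjusted p = 0.305).

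Of the 5 clusters with the largest rises, 3 with each compound lay on the long arm of chromosome 8 around TRIB1, POU5F1B and MYC, where 10 members stood. Of these 10, 7 rose and 1 fell with NaBu, and 3 rose and 1 fell with NaPr, whereas the 479 clusters outside chromosome 8 gave 27 risers and 157 fallers with NaBu and 5 and 59 with NaPr. All 21 members on chromosome 8 gave 7 risers and 4 fallers with NaBu and 3 and 3 with NaPr. The 10 were picked out because large rises lay among them, so their count of risers is no evidence of a trait of this arm. Copy number was not analysed here, and no test was run on this count. At the TRIB1 cluster at place 372 (chr8:125589467-125615188), 155921 bp from the start of this pseudokinase gene, ranks were 55.6, 57.8 and 58.6 without and 67.9, 74.4 and 71.9 with NaBu. With NaPr they were 69.4, 71.2 and 70.4 without and 81.5, 78.1 and 81.0 with treatment. The treated values were the higher ones in both experiments, with rises of 14.1 points (SE 2.87, limma adjusted p = 0.00352) and 9.89 points (SE 2.22, adjusted p = 0.0204), of which the NaPr call was kept in 2 of the 6 fits that left out a library.

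The MYC cluster at place 88 (chr8:127936109-127982152) rose from 66.5, 66.2 and 64.6 to 76.9, 75.2 and 77.9 with NaBu, by 10.9 points (SE 2.18, limma adjusted p = 0.00317). With NaPr it went from 73.7, 69.5 and 69.7 to 80.0, 77.9 and 80.4, by 8.48 points (SE 2.32, adjusted p = 0.0387), and was called in 1 of the 6 fits that left out a library. Neither experiment had an overlap between its groups. The POU5F1B cluster at place 45, over the lncRNA genes CASC8 and PCAT1, rose by 12.7 points with NaBu (SE 1.71, limma adjusted p = 0.000402) and had a change of 5.87 points with NaPr (adjusted p = 0.0995).

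Away from chromosome 8, the cluster near SPRY4, an inhibitor of receptor kinase signalling, rose with both compounds. Its ranks were 83.0, 80.0 and 83.6 without and 90.2, 91.3 and 90.5 with NaBu, and 91.2, 90.6 and 90.8 without and 94.5, 94.5 and 93.1 with NaPr. Both sets lay apart, with rises of 8.43 points (SE 1.18, limma adjusted p = 0.000504) and 3.21 points (SE 0.825, adjusted p = 0.0316). The NaPr call was kept in 1 of the 6 fits that left out a library, and ranking by fold enrichment turned its direction. Clusters nearest to PREX1, which activates the GTPase Rac, and AP2S1, a subunit of the clathrin adaptor, rose by 12.4 and 11.5 points with NaBu. Their changes with NaPr of −1.29 and −2.48 points did not pass. Of the 5 regions tested in the AP2S1 cluster with NaBu, only 1 was called higher, by 53.4 points, and 1 was called lower. The mean of that cluster thus rests largely on 1 region. The PREX1 cluster lay 257372 bp from that start, with a start of LINC00494 inside its span. The rises of the MYC cluster at place 169 and the ATXN7L1 cluster with NaPr, by 12.1 and 8.88 points, were called in none of the 6 fits that left out a library.

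**Figure D4:**
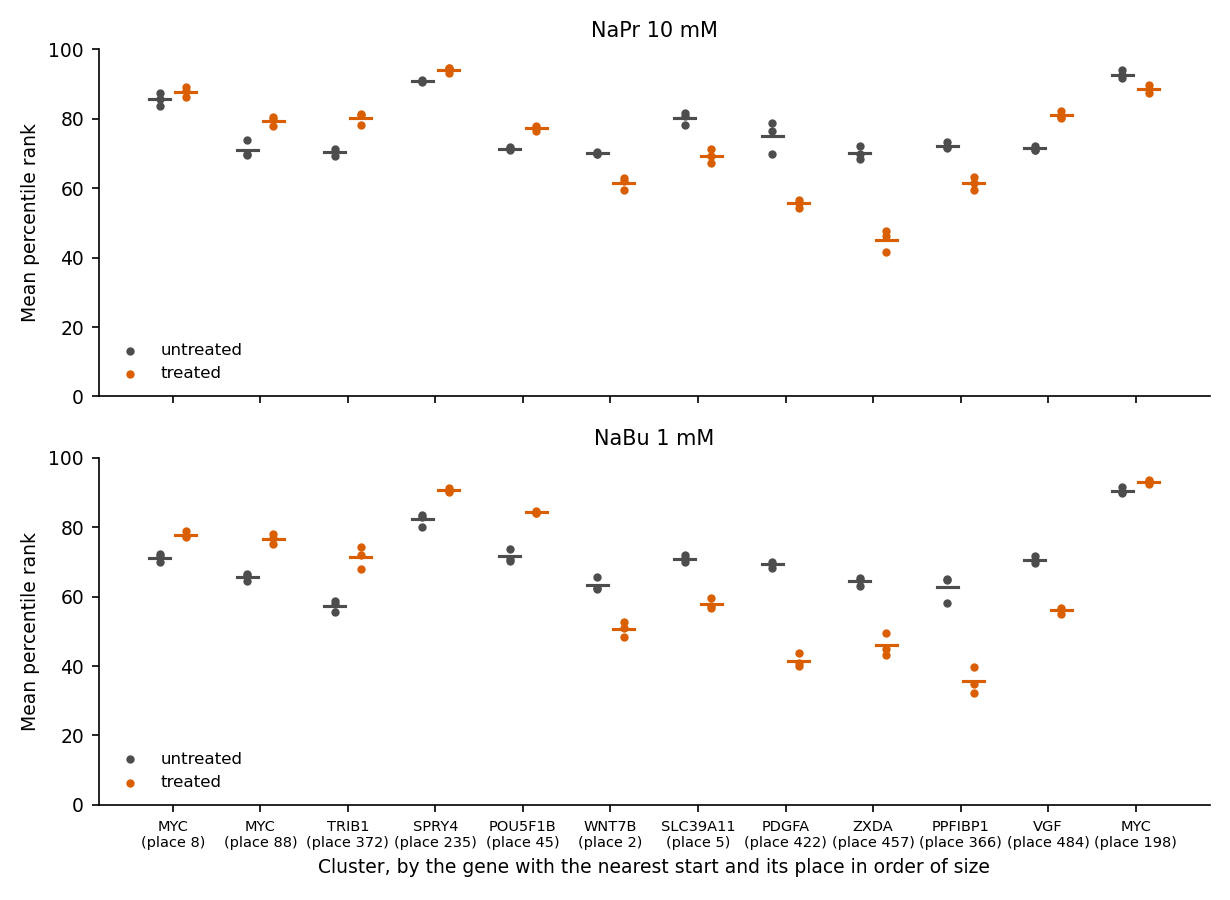
Mean percentile rank (0 to 100) of 12 named clusters in each library, with untreated libraries in grey, treated ones in orange, and a bar at each group's mean (n = 3), for NaPr (top) and NaBu (bottom). Treated points sit above the untreated ones at place 88 near MYC and at TRIB1, SPRY4 and POU5F1B in both panels and below them at WNT7B, SLC39A11, PDGFA, ZXDA and PPFIBP1, while VGF and the MYC cluster at place 198 move in opposite directions.

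Large falls with both compounds lay near PDGFA, a platelet-derived growth factor subunit, on chromosome 7. The one at place 422 (chr7:451590-462244) had ranks of 70.0, 68.4 and 69.5 without and 39.9, 40.9 and 43.8 with NaBu. With NaPr these were 69.9, 78.7 and 76.5 without and 56.7, 55.8 and 54.4 with treatment. Treated values were all lower, with changes of −27.8 points with NaBu (SE 3.27, limma adjusted p = 0.000209) and −19.4 points with NaPr (SE 3.60, adjusted p = 0.0111). The cluster at place 101 (chr7:529843-563221), 9547 bp from the PDGFA start, had changes of −22.6 points with NaBu (SE 2.77, limma adjusted p = 0.000260) and −20.5 points with NaPr (SE 5.90, adjusted p = 0.0448). With lists limited to the top 50000 intervals the NaBu change at place 422 was −4.18 points (limma adjusted p = 0.358). With NaPr the call at place 422 was lost without untreated replicate 2 or 3 and that at place 101 without any library other than treated replicate 2.

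The largest fall with NaPr was at a cluster 319066 bp from ZXDA (chrX:58229524-58247166), from 72.2, 69.7 and 68.3 to 41.6, 47.8 and 46.3. With NaBu it went from 65.3, 64.9 and 62.9 to 43.3, 49.5 and 44.97. The groups were apart in both, with changes of −24.9 points (SE 4.31, limma adjusted p = 0.00903) and −18.4 points (SE 3.43, adjusted p = 0.00217), and the NaPr call was kept in all 6 fits that left out a library. The ZXDA call was lost by fold enrichment (limma adjusted p = 0.0559 with NaPr and 0.0668 with NaBu) and, with NaPr, by tags scaled by the background (adjusted p = 0.0535), and with the top 50000 intervals the NaBu change was −1.01 points (adjusted p = 0.897). This cluster is 1 of 40 members within 1 Mb of an assembly gap of at least 50 kb, and what the gap does to its values was not tested. Without the 40, the 460 others gave 8 risers and 55 fallers with NaPr (1.74% and 12%). With NaBu they gave 34 and 143 (7.39% and 31.1%). Of all clusters, 7.79% rose and 6.27% fell with NaPr and 26.6% rose and 15.7% fell with NaBu.

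Clusters near IRAG1 and EPHB2, an Eph receptor of intestinal crypts, fell with both, with changes of −20.1 and −19.9 points with NaPr and −13.4 and −9.26 points with NaBu. With NaPr these calls were lost without any of the untreated libraries, and that of EPHB2 without treated replicate 1 or 3 as well. With NaBu the IRAG1 call was lost without any untreated library or treated replicate 3, and the EPHB2 call without untreated replicate 1. The other large falls with NaBu were −27.0 points near PPFIBP1, a liprin, −25.8 points near CEP112, a centrosomal protein, −25.6 points near BCOR and −22.9 points near CCR7, a chemokine receptor. The PPFIBP1 cluster also fell by 10.7 points with NaPr, a call kept in none of the 6 fits that left out a library. The BCOR cluster, inside its gene and 3419 bp from a start, was at 67.8, 68.7 and 60.3 without and 40.7, 39.6 and 39.9 with NaBu. These treated values lay well below the untreated ones (SE 3.76, limma adjusted p = 0.000636). With NaPr its change was −6.89 points (SE 3.45, adjusted p = 0.196).

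VGF and MYC (place 198) were nearest to the clusters called in opposite directions. The VGF cluster (chr7:101169865-101193278), around the start of NAT16, was at 71.1, 72.1 and 71.0 without and 82.3, 80.5 and 80.2 with NaPr, a rise of 9.61 points (SE 2.06, limma adjusted p = 0.0174) that was not called without untreated replicate 3. With NaBu it went from 71.7, 70.5 and 69.7 to 56.8, 55.1 and 56.1, a fall of 14.6 points (SE 2.68, adjusted p = 0.00200). Neither pair of groups overlapped. The mean hid a mixture, as 4 of its 7 regions rose and 3 fell with NaBu, 2 of them losing their peak in all treated libraries. On recovered tags its NaBu change was above 0, a log2 change of 0.30 with background scaling (limma adjusted p = 0.00346). Tag fits kept only regions with a peak in all 6 libraries, so the 2 regions that lost their peak did not enter them. With the top 50000 intervals the change was 5.86 points (adjusted p = 0.184), and the cause of that reversal was not tested. The MYC cluster at place 198 fell by 4.04 points with NaPr (SE 1.04, limma adjusted p = 0.0316) and rose by 2.62 points with NaBu (SE 0.757, adjusted p = 0.0188), and on recovered tags the NaBu change was below 0, at −0.11 (log2). Its calls were kept in 1 of 6 fits with NaPr and 2 of 6 with NaBu.

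**Figure D5:**
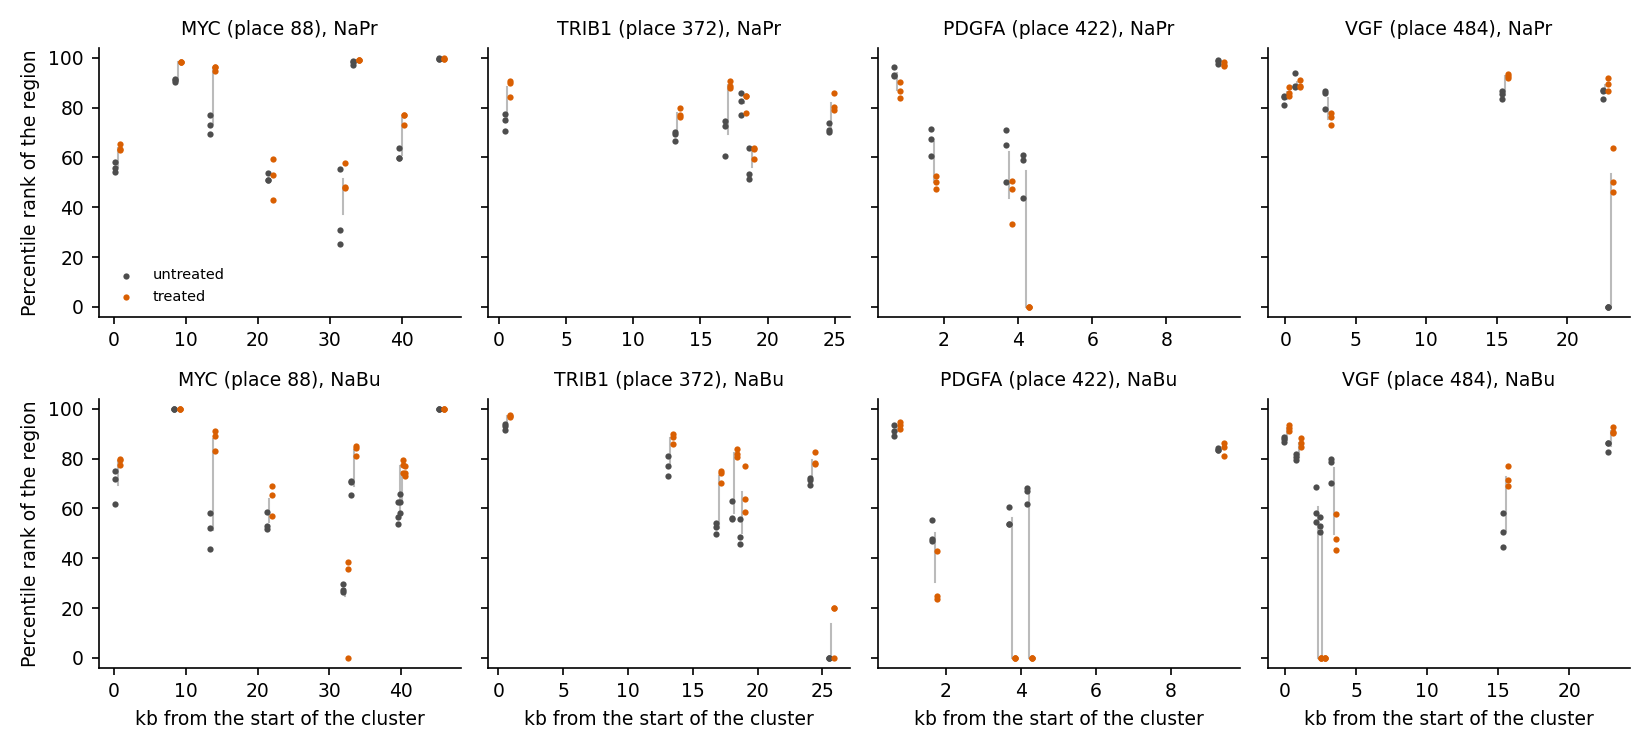
Percentile rank (0 to 100, with 0 for no peak) of each region in 4 clusters against the distance in kb of its midpoint from the start of the cluster, with 3 untreated (grey) and 3 treated (orange) libraries joined by a line between their means, for NaPr (top) and NaBu (bottom). In the MYC and TRIB1 clusters several regions rise together. In the PDGFA cluster 2 inner regions are at 0 in all NaBu-treated libraries and 1 of them in all NaPr-treated ones. In the VGF cluster 2 regions, at 2.33 and 2.62 kb, drop to 0 with NaBu, while the one at 15.5 kb rises.

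Single regions showed the largest shifts where a peak was absent from a whole group. A region of 251 bp in the EEIG1 cluster (chr9:127968770-127969020) lay inside the EEIG1 gene, with the AP-1 letters printed above 17 bp from its summit. It had no peak in the untreated libraries of the NaBu experiment and ranks of 60.5, 66.7 and 67.7 with NaBu (limma adjusted p = 0.000392). In the AP2S1 cluster the region at chr19:46806410-46807328, the only one there called higher, rose from 39.99, 23.4 and 33.2 to 86.3, 83.9 and 86.6 with NaBu, by 53.4 points (SE 4.80, adjusted p = 0.000491). Both regions had groups without overlap.

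Of the regions that disappeared, the one in the PLEKHG6 cluster (chr12:6274138-6274566) had ranks of 70.2, 65.8 and 77.8 in untreated libraries and no peak with NaBu (limma adjusted p = 0.000364). The region of the PTMA cluster (chr2:231671285-231672307) had 69.3, 67.5 and 73.6 and none with NaBu (adjusted p = 0.000343). A region of 666 bp inside NUAK2, a stress kinase gene (chr1:205317364-205318029), had 77.0, 78.9 and 84.5 without and no peak with NaPr (adjusted p = 0.00376). A rank of 0 means that no peak passed the limit of that list, not that the site was closed. The other regions chosen by the rule on size of change lay in clusters near VGF, MYC (place 169), FSCN1 and NAA20 among the gains and CD93, SLC39A11 and TRIB1 (place 146) among the losses.

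Few cluster regions lost their peak altogether. Of the 3307 regions, 58 (1.75%) had no peak in any NaPr-treated library and 96 (2.90%) in any NaBu-treated one, against 0.856% and 1.20% of the 30852 other shared distal regions. These lay in 56 and 85 clusters, and 18 regions had no peak with either compound. Because a peak in all 6 untreated libraries was required, a region of the rule could lose a peak but not gain one. In a single treated library, 94.9% to 97.0% of cluster regions kept a peak with NaPr and 94.7% to 95.1% with NaBu, against 96.4% to 97.4% and 97.1% to 97.2% of the others. Within the whole spans of the clusters, regions outside the rule count as well. There 131 regions (2.69%) had a peak in all 3 NaBu-treated and in no untreated library of that experiment. The reverse held for 276 (5.68%), against 6.42% and 3.91% of all regions tested. The NaPr numbers were 102 (2.10%) and 125 (2.58%), against 3.04% and 1.60%.

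AP-1 letters were more frequent in cluster regions that rose than in those that fell, at 33.3% of 192 against 12.0% of 383 with NaPr and 23.2% of 574 against 15.7% of 904 with NaBu. Other shared distal regions had 32.1% against 10.8% with NaPr and 22.2% against 18.3% with NaBu, and the difference between clusters and other regions was not tested. CTCF letters followed the same order, at 10.4% against 2.61% with NaPr and 9.06% against 3.21% with NaBu. Other shared distal regions had 12.7% against 3.72% with NaPr and 15.5% against 3.43% with NaBu. Median GC content was 53.3% in risers and 57.5% in fallers with NaPr and 54.5% and 57.5% with NaBu, and its part in these shares was not tested.

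Genes of the lists made for this tissue were close to a cluster in 6.25% to 33.3% of cases. No enrichment was tested, and the lists were chosen with earlier results known. A start lay within 50 kb of a cluster for 7 of 25 WNT target and stem cell genes (28%), 9 of 27 genes of epithelial adhesion, keratins and laminins (33.3%), 3 of 10 cell cycle inhibitors and D cyclins (30%) and 4 of 29 intestinal lineage transcription factors (13.8%), against 761 of all 19405 protein-coding genes (3.92%). The shares were 11.8% for 17 YAP and TEAD genes, 11.8% for 17 TGF-beta and BMP genes, 9.09% for 22 EGFR and MAPK genes and 6.25% for 16 AP-1, MAF and BACH genes. Among the 17 genes that the study itself named, chosen on these samples and so no independent evidence, 4 (23.5%) were that close.

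Calls in the lists stand beside those of all 500 clusters, where 32.2% fell and 6.80% rose with NaBu and 12.4% and 1.60% with NaPr, and no list was tested against them. Of the 13 clusters nearest to a WNT or stem cell gene, 3 rose and 5 fell with NaBu and 2 rose and 4 fell with NaPr, and the risers were MYC clusters in each case. The AXIN2 cluster at place 71 fell by 13.5 points with NaBu (SE 3.16, limma adjusted p = 0.00694), from 65.5, 63.7 and 61.6 to 49.5, 51.0 and 49.7, groups that did not overlap. In the TGF-beta list, clusters nearest to TGIF1, a SMAD corepressor, and SMAD7, an inhibitory SMAD, fell with NaBu, with changes of −16.6 and −12.04 points. The TGIF1 cluster, which lay 124395 bp from that start and overlapped DLGAP1, fell by 14.5 points with NaPr. The SMAD7 call was lost without untreated replicate 1 or 2, with the top 50000 intervals and by both scalings of tags, and the NaPr call of TGIF1 without any untreated library. The cluster near SMURF2, a ubiquitin ligase of SMADs, had −8.75 points with NaBu (adjusted p = 0.0542).

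Of 8 clusters nearest to adhesion and keratin genes, 2 fell and none rose with NaBu, namely ACTN4, which crosslinks actin, with −13.6 points and KRT80 with −10.02 points, and ITGA6 had −4.26 points. The KRT80 call was lost by fold enrichment and both scalings of tags, and the ACTN4 call by fold enrichment and the top 50000 intervals. With NaPr ACTN4 fell by 16.97 points, a call kept in 1 of the 6 fits that left out a library and turned by tags scaled by the background. The KRT18 cluster fell by 9.46 points and the KRT7 cluster rose by 4.63 points with NaPr, both keratin genes named after their values were seen. Of 7 lineage factor clusters, 3 fell and 1 rose with NaBu, and the HES1 cluster at place 331, near a target of Notch signalling, fell by 10.6 points (SE 2.09, limma adjusted p = 0.00288), while ELF3 and ID2 stood at −2.12 and −2.22 points. The other two that fell were at HES1 (place 435) and ID1, with −13.7 and −11.8 points, and PITX1 rose by 3.60 points. These were named after their values were seen.

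EGFR and MAPK genes were nearest to 3 clusters, of which SPRY4 and TGFA rose with NaBu. The TGFA cluster, near this ligand of the EGF receptor, went from 71.1, 70.1 and 67.9 to 79.2, 76.6 and 81.1, by 9.29 points (SE 2.11, limma adjusted p = 0.00597), without overlap, and the EGFR cluster had 1.16 points. With NaPr the TGFA cluster had −0.39 points (SE 4.08, adjusted p = 0.959). Clusters near CDKN1A, the p21 inhibitor of cell cycle kinases, and CCND1, a D cyclin, passed neither test, with −2.16 and 3.87 points with NaPr and 1.91 and 1.60 points with NaBu. The FOSL2, AMOTL2 and CCN1 clusters of the AP-1 and YAP lists were not called either, at −0.06, −7.39 and 4.19 points with NaBu and −8.01, −1.69 and 2.83 points with NaPr.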

How the data were processed

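Accessible chromatin of SW480 cells was profiled by Omni-ATAC in 12 libraries, and 8 libraries of mouse CT26 cells were not used here. Groups and replicate numbers came from the sample titles. The authors processed reads with the ENCODE pipeline, and per the labels with cutadapt 1.9.1, Bowtie2 2.3.1 and MACS2 2.1.0, on GRCh38. Peaks were called per library without pooling. The deposited lists give per summit the fold enrichment over local background as a ratio, and −log10 p and −log10 q values. Numbering ended at 300000 summits in order of p, so the weakest peak listed had a −log10 p between 3.37 and 9.38 depending on the library, and a region listed without one may lie under it. The lists hold no read totals, and tags at summits were recovered from fold and p (100% of summits solved). Fits on tags used only regions with a peak in all 6 libraries of a comparison. These were 3133 cluster regions with NaPr and 3064 with NaBu, where the ranks used 3571 and 3436.

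Intervals overlapping by at least 1 bp were merged. GENCODE 44 gave 146186 protein-coding transcript start positions, and sequence came from GRCh38. Regions with a peak in at least 2 of 6 libraries of a comparison were ranked, regions without a peak were set to 0, and percentile ranks were fitted with limma 3.58.1 (lmFit and eBayes with trend, two-sided, R 4.3.3), over all regions and over all clusters, with Benjamini-Hochberg adjustment and a threshold of 0.05. Each comparison used only its own 3 treated and 3 untreated libraries. The fit and the recovery of tags were tested on simulated data. Same-numbered libraries did not deviate together (correlations of 0.01 to 0.04 with NaPr and 0.01 to 0.02 with NaBu), so numbers were not used as pairs.

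Named were the 10 largest clusters, per compound the 5 clusters and 3 regions that rose and fell most among those called without overlap between groups, up to 3 clusters per gene list by size, and up to 3 called alike or oppositely by both compounds. One of these clusters and one marker gene are not reported here. The members, gene lists, motifs and tests were chosen with earlier results of these data known. Alternatives in ranking, list limit, filter, scaling of tags, selection of clusters, overlap, block and left-out libraries are given in the closing section. Tables and figures were made with Python 3.11.15, numpy 2.4.6, pandas 2.3.3, scipy 1.17.1, pysam 0.24.0, samtools 1.23.1 and matplotlib 3.10.9.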

Additional observations from a re-analysis of the deposited data

How the results depend on the processing

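Clusters called with NaPr numbered 8 higher (1.60%) and 62 lower (12.4%) of the 500. Ranking by fold enrichment gave 0% and 1.20%, tags scaled by the background 3.00% and 0%, tags scaled by the median 5.6% and 19.2%, and members from the other experiment 1.00% and 4.82%. All clusters stood at 7.79% and 6.27% in the main fit. In these settings they stood at 1.475% and 1.69%, 16.3% and 0.721%, 14.03% and 10.8%, and 5.69% and 3.33%. The higher share was 2.40% with the top 50000 intervals, and 1.00% with a peak in at least 1 library, with 200 clusters and with the rule run without the shallowest untreated library. Of all clusters, 11.5%, 5.70%, 7.79% and 7.07% rose in these settings. Regions called with NaPr (5.46% higher, 10.9% lower) became 0.728% and 2.55% by fold enrichment, 3.51% and 5.92% with a peak in at least 1 library, 9.67% and 2.55% by tags scaled by the background and 10.9% and 26.3% by tags scaled by the median. All regions tested stood at 4.45% and 3.90% in the main fit. In these settings they stood at 2.25% and 1.39%, 1.20% and 1.13%, 13.4% and 1.11%, and 12.2% and 20.0%. Without a single library, NaPr clusters ranged from 0% to 0.600% higher and 2.00% to 8.40% lower, and regions from 0% to 1.96% higher and 0% to 1.82% lower. Over all clusters the shares in these fits were 3.335% to 5.03% higher and 1.53% to 5.61% lower. Over all regions tested they were 0% to 1.31% higher and 0% to 0.566% lower.

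With NaBu, clusters called higher (6.80%) were 0.400% by fold enrichment, 16.6% with the top 50000 intervals, 17.8% and 19.2% by tags scaled by the background and by the median, and 10.4% with members from the other experiment, where 15% were lower. Of all clusters, 26.6% were higher in the main fit and 10.2%, 31.4%, 35.6%, 37.3% and 28.4% in these settings, with 10.9% lower in the last. Regions called higher (17.0%) were 6.61% by fold enrichment. Without a single library, clusters called higher ranged from 3.6% to 5%, against 21.0% to 23.4% of all clusters. Regions with no peak in any treated library (1.75% with NaPr, 2.90% with NaBu) were 20.2% and 27.9% with the top 50000 intervals and 21.7% and 15.2% with members from the other experiment. In this count the limit of 50000 intervals was applied to the treated libraries only. Regions from the other experiment needed no peak in the untreated libraries of the comparison. These 2 settings thus do not count losses with treatment alone. The causes of the other shifts were not tested, other than that shorter lists and fewer libraries leave fewer peaks or samples.

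A replicate block, fitted although numbers do not pair the libraries, gave 0.800% of clusters higher and 8% lower with NaPr and 0.784% and 1.01% of regions, and moved no NaBu count by over 1.5 times. With NaPr, 6.86% of all clusters were higher and 5.07% lower in that fit, and 0.2945% and 0.1933% of all regions tested. Of 48 named calls in 13 fits each, 442 of 624 values kept their call, 171 kept the direction without a call and 11 reversed. With libraries left out 1 at a time, 25 of 30 named NaBu calls were kept in all 6 fits and 1 of 18 NaPr calls. Ranking by fold enrichment ended 15 of the NaBu and all 18 of the NaPr calls. Reversed with NaPr were VGF (−0.0348 by tags scaled by the median), EPHB2 (3.73 with the top 50000 intervals, 0.0654 by tags scaled by the background), SPRY4 (−4.13 by fold enrichment) and ACTN4 (0.0613 by tags scaled by the background). Reversed with NaBu were VGF (5.86 with the top 50000 intervals, 0.30 and 0.31 by tags) and MYC at place 198 (−0.56 by fold enrichment, −0.108 and −0.0906 by tags). Leaving out the 40 clusters near assembly gaps, an alternative chosen after seeing the data, moved no count by over 1.5 times. Background pileup was lowest in 2 NaPr-experiment libraries, at 0.936 and 0.938 tags, and its part in the lost NaPr calls was not tested.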

Other observations

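Clusters were spread unevenly over the chromosomes. Chromosome 17 held 8.40% of the 500 clusters and 5.12% of the shared distal regions, and chromosome 20 held 6.60% and 4.38%. Chromosome 6 held 2.60% and 4.66%. With NaBu, 19 of the 42 clusters of chromosome 17 fell and none rose, with a median change of −6.24 points, and 7 of the 9 on chromosome 22 fell, with a median of −9.56 points. On chromosome 8, 7 of 21 rose and 4 fell, with a median of −0.28 points. Of all 500 clusters, 32.2% fell and 6.80% rose with NaBu, with a median of −3.35 points. Of all 22037 clusters, 15.7% fell and 26.6% rose. With NaPr the medians of chromosomes 17, 22 and 8 were −2.61, −7.05 and −0.12 points, and −3.78 points in all 500. These chromosomes were picked out from all of them, and no test was run on their counts or medians. The copy number of these chromosomes was not analysed here.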
